A study of Mus musculus with 10 samples.

Results

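Mammary tumours named ILn were compared with mammary tumours named LP across all probe sets of an Affymetrix mg_u74av2 expression array. The comparison used 4 of the 10 arrays of the study: ILn A, ILn B, LP A and LP B. They were chosen by the strain name in the array title, and these names were picked because their replicate arrays lay closest together among the strain names with 2 arrays. The small spread between replicates was thus part of the choice, and p-values that rest on it may be too small. On all 4 the labels give adult females aged 90 days and total RNA of the tumour. The series title places the mice in the MMTV-PyMT model, where the middle T oncogene of polyomavirus is under a promoter of mouse mammary tumour virus that is active in mammary epithelium. This transgene is shared by both groups. The strain label reads FVB/Nj for every array, so the names ILn and LP rest on the titles alone. The titles call each array a mix without saying what was mixed, and nothing says that A and B came from separate animals. P-values thus reflect variation among arrays alone, and that variation could be technical.

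Besides malignant epithelium, a mammary tumour holds stroma with fibroblasts and collagen, blood vessels, blood, immune cells and fat. Skeletal muscle is built of sarcomeres whose myosin, troponin and calcium-handling genes differ between fast and slow fibres. Salivary and lacrimal glands secrete amylase, nucleases, kallikreins and small binding proteins. Interferon response genes encode antiviral and antigen-processing proteins that many cell types switch on together through shared promoter elements. The results are ordered by these groups of genes.

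Values are log2 of the probe set intensity after normalization, and differences are ILn minus LP on that scale. Intensities under the 30th percentile, 4.58 on the log2 scale, were raised to that floor, so a gene at the floor has only an upper bound. Markers of mammary epithelium were well above the floor in both groups. The epithelial keratin gene Krt8 lay at 10.66 and 11.21 in ILn and at 11.12 and 10.99 in LP. The casein gene Csn3 lay between 12.70 and 13.12 on the 4 arrays. These genes do not by themselves tell tumour from other mammary epithelium. The SD of the A minus B difference was 0.390 in the ILn pair and 0.474 in the LP pair, against 0.821 in MOLF and 0.862 in NZB, the other strain names with 2 arrays. Over the tested probe sets, ILn A and ILn B correlated at 0.970, LP A and LP B at 0.956, and an ILn with an LP array at 0.924 to 0.947. LP B correlated more closely with NZB A, at 0.963, than with LP A. The log2 ratio of the 3' to the 5' actin control probe sets, a measure of RNA integrity and labelling, differed between the groups. It was 0.218 and 0.282 in ILn and 1.12 and 0.940 in LP. The ratio thus separated the groups in the same way as the salivary, fast muscle, interferon and matrix genes described here, and its part in those results was not tested. The titles also carry dates: ILn B and LP B share one, while ILn A and LP A each have another. The log2 signal of the spike-in control probe sets was taken relative to each array's trimmed mean intensity (lowest and highest 2% left out). The mean of these relative values was 3.13 on LP A and 0.890 to 1.10 on the other 3 arrays.

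Of 8987 probe sets tested, 132 passed the limma test at an adjusted p of 0.05, which is 1.47% of them, and 1122 had an unadjusted p under 0.05. ILn was higher for 71 of the 132 and LP for 61. The absolute differences ran from 0.82 to 7.91. The largest ones lay in ILn: 7 probe sets were over 16-fold higher in ILn and 1 was over 16-fold higher in LP. Counted with 1 probe set per gene over 6595 genes, 43 genes (0.652%) passed as higher in ILn and 50 (0.758%) as higher in LP. These shares are the background for the counts of list members given below. The median difference over all tested probe sets was -0.01. Both LP arrays were at the floor for 24 of the 71 probe sets higher in ILn, and both ILn arrays for 4 of the 61 higher in LP. A group at the floor shows no spread, which can make its p too small. With the title date as a block over the 9 strain arrays, 8 probe sets passed and 350 had an unadjusted p under 0.05. Of the 8, 6 (75.0%, against 53.8% in the 4-array fit) were higher in ILn. Those named among the 8 were Smr3a, Amy1, Bpifa2, Chia1, Dnase1, D17H6S56E-5 and Pglyrp1. No ILn array overlapped an LP array at any of the 132. Every single pair of arrays, ILn B and LP B included, thus had to have the sign of the 4-array difference. The share of all 8987 without overlap is not given here. An exact permutation test of 2 against 2 cannot go below p = 0.333 two-sided. Lack of overlap therefore adds nothing to the limma test, here or for the genes named below. ILn B minus LP B, the pair that shares a date, exceeded 2-fold for 120, although those arrays also took part in choosing the 132. With the spread shared over all 9 strain arrays, 53 passed, of which 64.2% were higher in ILn, and 52 of them were among the 132. Without any 1 of the 4 arrays, whichever it was, none passed in limma, and 587 to 1262 had an unadjusted p under 0.05.

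**Figure D1:**
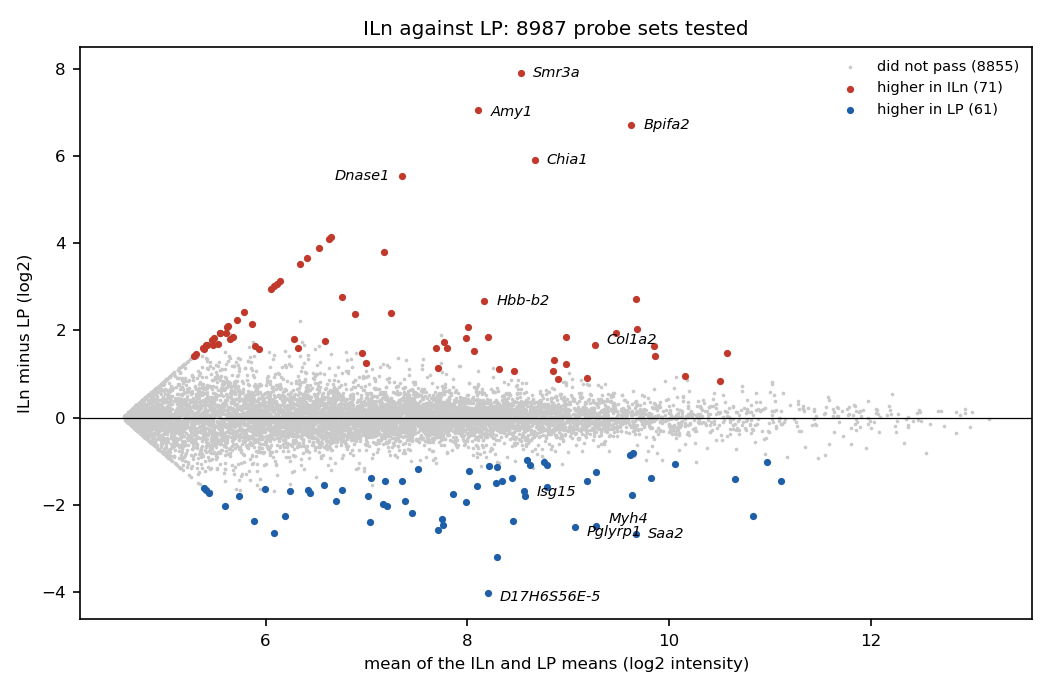
Difference between ILn and LP (log2, vertical axis) against the mean of the ILn and LP means (log2 intensity, horizontal axis) for the 8987 probe sets tested, 1 point each. The 71 probe sets that passed as higher in ILn are red and the 61 higher in LP are blue. The diagonal edge at the upper left holds probe sets with LP at the floor, and Smr3a, Amy1, Bpifa2, Chia1 and Dnase1 stand apart at differences over 5.

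The 5 largest differences belonged to secreted proteins of salivary and lacrimal glands. Smr3a, which encodes a salivary submaxillary androgen-regulated protein, lay at 12.48 on ILn A and 12.50 on ILn B and at the floor on both LP arrays. It was at least 240.3-fold higher in ILn (difference 7.91 ± 0.16 (SE), adjusted p = 1.02e-06 in limma). Amy1, the salivary amylase gene, lay at 11.85 and 11.42 in ILn and at the floor in both LP arrays, at least 133-fold lower. Signal of the closely related pancreatic amylase genes could not be separated from it. Bpifa2, a salivary parotid protein, lay at 13.01 and 12.96 in ILn and at 6.98 and 5.55 in LP, a 105-fold difference. In the LP pair it varied by more than 1 log2 unit, still far less than the distance to ILn. Chia1, an acidic chitinase, lay at 11.69 and 11.55 in ILn and at 5.79 and 5.64 in LP, which is 59.95-fold higher in ILn. Dnase1, a secreted nuclease of parotid and other glands, lay at 10.03 and 10.23 in ILn and at the floor in LP, at least 46.9-fold higher in ILn (5.55 ± 0.20 (SE), adjusted p = 2.47e-05 in limma). The ILn and LP arrays did not overlap for any of the 5, nor for any other of the 132 probe sets past the test.

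The list of salivary and lacrimal secretory genes had 47 members, of which 26 had a probe set and 21 were tested. Of the 21, 12 were higher in ILn, none was higher in LP, and the median difference was 2.37. Over all genes tested, 0.652% passed as higher in ILn and the median was -0.01. Among the 12, both LP arrays were at the floor for 7, and 8 of the 21 tested members entered the test only through the ILn arrays, so the count describes the genes and does not support a direction by itself. Tissue kallikrein genes, which encode serine proteases, were among the 12. Klk1 lay at 7.61 and 7.80 in ILn against the floor in LP, and Klk1b1 and Klk1b5 were higher by 2.37 and 2.08. Kallikrein genes are near-identical, so which copy gave the signal is uncertain. Pip, the prolactin-inducible protein of secretory glands, lay at 9.16 and 8.99 in ILn and at 5.98 and the floor in LP. Mucl2, a mucin-like salivary protein, lay at 7.75 and 7.44 in ILn against the floor, and its second probe set also passed, at 1.77. Prpmp5, a proline-rich salivary protein, was 6.85-fold higher in ILn, at 8.26 and 8.05 against 5.81 and 4.94, and its second probe set, at 2.22, did not pass (adjusted p = 0.0595 in limma). The 9 tested members that did not pass had differences from -0.74 to 1.498. They included genes of the same glands. Car6, a secreted carbonic anhydrase of saliva, lay at 9.95 and 10.20 in ILn and at 10.48 and 9.70 in LP, so the groups overlapped. Smr2, a relative of Smr3a, differed by -0.74, Prol1 by 0.53, the lactoferrin gene Ltf by -0.14 and the epidermal growth factor gene Egf by -0.05. Summed over the 26 members, the intensity was 29858 and 29187 in ILn and 7987 and 7105 in LP. In RNA of whole tumours, fewer cells of a type and less RNA per cell cannot be told apart. A fit that included the title date called 5 members. When only probe sets above the floor on all 4 arrays were tested, 4 members passed, since members at the floor then left the test.

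**Figure D2:**
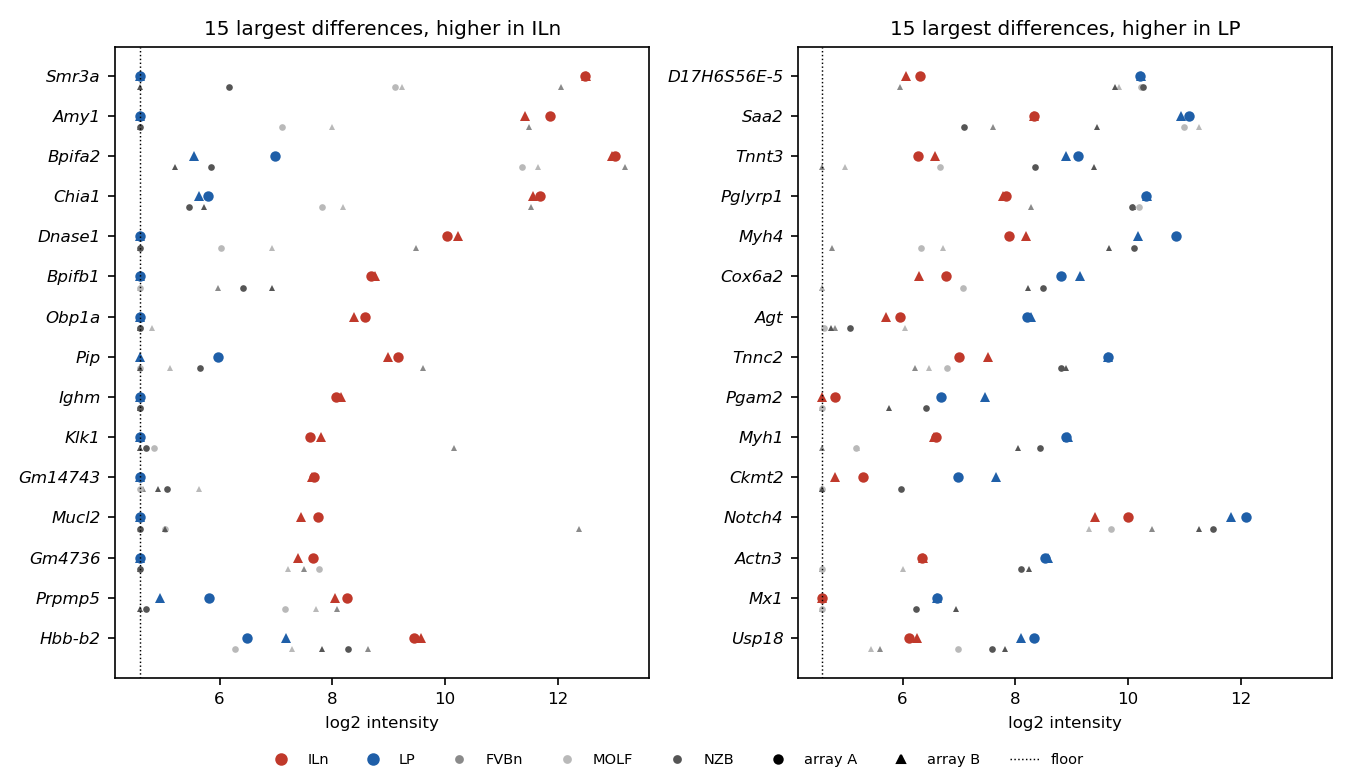
Log2 intensity (horizontal axis) of the 15 genes with the largest differences that passed the test as higher in ILn (left) and higher in LP (right). Large red and blue points are ILn and LP, small grey points are the other 5 strain arrays, circles are arrays A and triangles arrays B, and the dotted line is the floor. In the left panel the LP points of 10 genes lie on the floor, and in the right panel the A and B points of a group mostly lie close together.

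Odorant-binding, major urinary and secretoglobin proteins are small carriers of hydrophobic ligands in secretions and urine. Of 20 listed genes 8 had a probe set, 6 were tested and 4 were higher in ILn, against 0.652% of all genes tested. Obp1a, an odorant-binding protein that also stands in the salivary list, lay at 8.58 and 8.38 in ILn and at the floor in LP, at least 14.9-fold lower. Scgb1b2 and Scgb1b27, which encode androgen-binding protein subunits, were higher by 1.85 and 0.95. Mup5, a major urinary protein gene with many near-identical copies, lay at 8.96 and 8.85 in ILn and at 7.33 and 6.81 in LP. MOLF A and MOLF B were higher still for the Mup5 probe set, at 9.32 and 9.48. Bpifb1, a secreted relative of Bpifa2 found in mucosal glands, lay at 8.68 and 8.75 in ILn and at the floor in LP.

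Antibody and red cell transcripts included single members that were higher in ILn while their lists were not. Igha, the constant region of immunoglobulin A, which plasma cells of mucosal and glandular tissue secrete, lay at 8.90 and 9.18 in ILn and at 7.05 and 6.88 in LP, 4.21-fold lower. A dimmer Igha probe set differed by 0.44 and did not pass. Jchain, which joins immunoglobulin A into dimers, differed by 1.41 and did not pass (adjusted p = 0.133 in limma). An Ighm probe set was at least 11.6-fold higher in ILn, but the other 4 probe sets of Ighm ranged from -0.51 to 1.41 and did not pass, so the gene's own difference is uncertain. Of the 20 B cell and immunoglobulin genes tested, Igha was the 1 that passed, and the list's median was 0.01. The immunoglobulin kappa gene Igkv6-23, which is not in the list, also passed. It lay at 9.20 and 9.07 in ILn and at 7.31 and 7.27 in LP (difference 1.85). Among red cell genes, Hbb-b2 (beta globin) lay at 9.44 and 9.57 in ILn and at 6.49 and 7.17 in LP, and Hba-a1 (alpha globin) at 10.61 and 10.29 against 8.48 and 8.50. These 2 were the members that passed among 14 erythroid genes tested, whose median was -0.14. Globin copies share sequence, and the probe sets may report several copies.

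Of 59 tested genes of the fibroblast and matrix list, 7 were higher in ILn, 5 of them collagen genes, and none was higher in LP. Of all genes tested, 0.652% passed as higher in ILn. The list's median was 0.36, against -0.01 over all genes. A difference above 0 was found for 45 of the 59 and one below 0 for 14, the lowest being Col12a1 at -0.90, which did not pass. Col1a2, a chain of type I collagen, lay at 10.08 and 10.12 in ILn and at 8.51 and 8.34 in LP, a 3.19-fold difference (1.68 ± 0.15 (SE), adjusted p = 0.0024 in limma). A second, also bright, Col1a2 probe set differed by -0.18 and did not pass. Lum, the collagen-binding proteoglycan lumican, lay at 8.52 and 8.44 in ILn and at 6.89 and 6.90 in LP. Col3a1 was higher by 1.23, Col5a2 by 1.59, Col6a3 by 1.33, the matrix glycoprotein gene Sparcl1 by 1.07 and Col1a1 by 0.85. The other Col3a1 probe sets differed by 0.08 and 1.29 and did not pass. In none of these 7 did an ILn array overlap an LP array, as was so for all 132 probe sets past the test. The fibronectin gene Fn1 (0.79) and the periostin gene Postn (0.84) did not pass. The summed intensity of the list was 19574 and 19722 in ILn and 12840 and 12567 in LP. The count of members that passed depended on the setting: it was 17 when probe sets had to lie above the floor on all 4 arrays, 2 with all 9 arrays in the fit and 0 in limma once the title date was in the fit. In that last fit 14 members had an unadjusted p under 0.05 and were higher in ILn, against 23 in the 4-array fit. Over all 8987 probe sets, in either direction, the counts were 350 and 1122.

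LP was higher for 15 of 21 tested genes of fast skeletal muscle fibres, with contractile and energy genes among them. Of all genes tested, 0.758% passed as higher in LP. Myh4, the myosin heavy chain of the fastest fibres, lay at 7.89 and 8.19 in ILn and at 10.85 and 10.18 in LP, 5.57-fold higher in LP (adjusted p = 0.0029 in limma). Another Myh4 probe set differed by -0.79 and did not pass. Myh1, another fast myosin, lay at 6.60 and 6.55 in ILn and at 8.90 and 8.93 in LP. None of the 21 was higher in ILn, and their median was -1.66. Thin filament and cross-linking proteins were among the 15, with Tnnt3 at 6.28 and 6.57 in ILn against 9.10 and 8.90 in LP, Tnnc2 5.21-fold higher and the actinin gene Actn3 4.59-fold higher. So were the calcium pump gene Atp2a1 (3.44-fold), the calcium buffer gene Pvalb (2.08-fold), the muscle creatine kinase gene Ckm (3.15-fold) and the glycogen phosphorylase gene Pygm (3.74-fold). Further probe sets of Atp2a1, Pvalb and Actn3 passed as well, at -3.19, -2.66 and -1.69. The 6 that did not pass ranged from -1.67, for the fast troponin gene Tnni2 (adjusted p = 0.0535 in limma), to 0.04 for Gpd1. Aldoa, at -0.32, and Tpm1, at -0.24, are used outside muscle too.

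A second muscle list was named for slow fibres or genes shared between fibre types, and its members are not all particular to slow fibres. Of its 21 tested genes, 5 were higher in LP, against 0.758% of all genes tested. None was higher in ILn, and the median was -0.66. Of the 21, 3 entered the test only through the LP arrays and could only be lower in ILn, and none of them passed. Those 5 were Cox6a2, the muscle form of a cytochrome oxidase subunit, at 6.77 and 6.29 in ILn against 8.81 and 9.15 in LP, the mitochondrial creatine kinase gene Ckmt2 (4.81-fold), the tropomyosin gene Tpm2 (2.82-fold), Myoz1 (2.74-fold) and Ldb3 (2.63-fold). A second Ckmt2 probe set differed by -1.15 and did not pass. The difference between the fast and slow lists was not tested. The summed intensity of the fast fibre list was 7971 and 8385 in ILn and 17631 and 17405 in LP. NZB A and NZB B were near LP, at 15499 and 15244, and FVBn, MOLF A and MOLF B were below ILn, at 5670 to 6088. With all 9 arrays in the fit 6 fast fibre genes passed, and with the title date as a block limma called 0, with 16 at an unadjusted p under 0.05 and higher in LP. In that date-block fit 350 of all 8987 probe sets had an unadjusted p under 0.05, in either direction. ILn B minus LP B was -2.37 for Myh1.

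**Figure D3:**
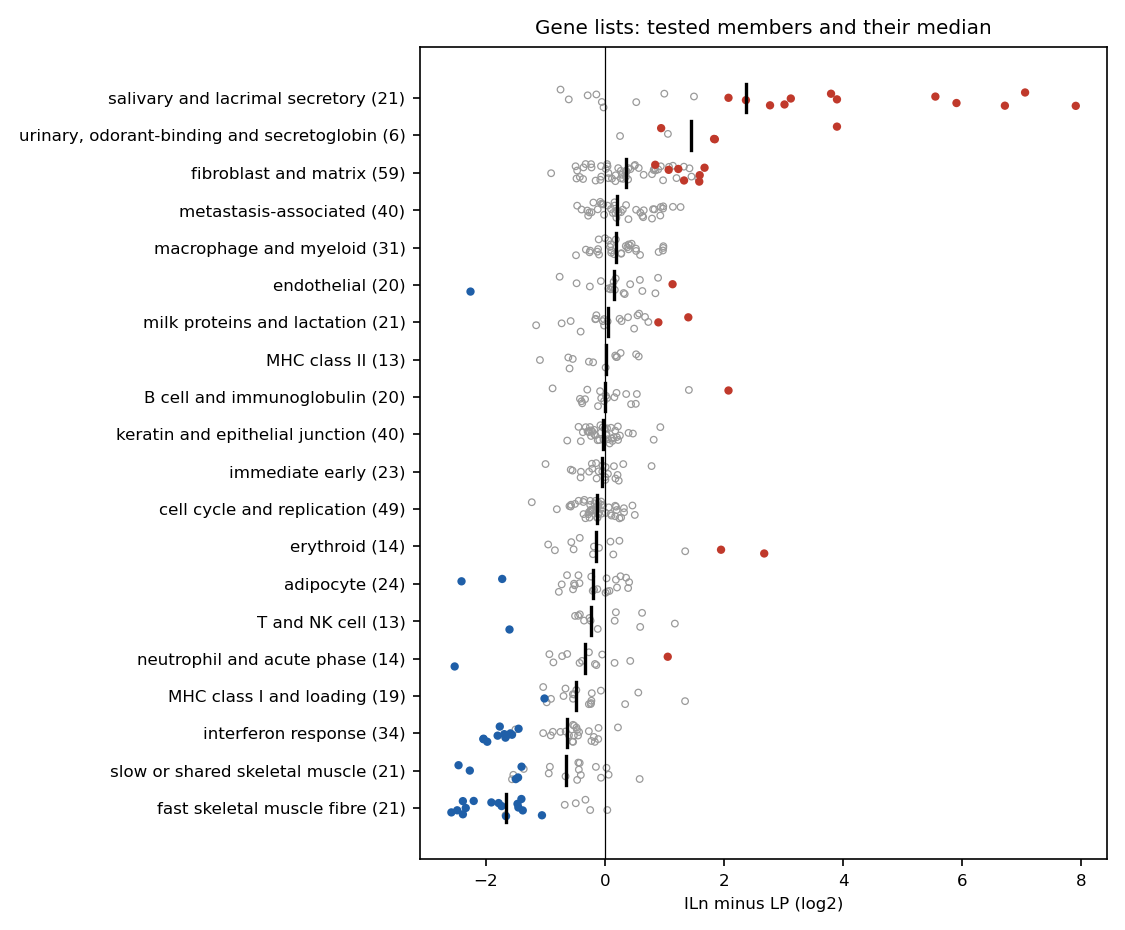
Difference between ILn and LP (log2, horizontal axis) for the tested members of 20 gene lists, 1 point per gene, with the number tested in parentheses. Red points passed the test as higher in ILn, blue points as higher in LP, open grey points did not pass, and the black bar is the list's median. The salivary list reaches 7.91 with a median of 2.37, and the fast skeletal muscle fibre list has a median of -1.66.

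Of 34 interferon response genes tested, 11 were higher in LP, none was higher in ILn, 33 had a difference below 0, and the median was -0.63. Of the 34, 3 entered the test only through the LP arrays and could only be lower in ILn, and 2 of these passed. The counts thus describe the genes and do not support a direction by themselves. Over all genes tested, 0.758% passed as higher in LP and the median was -0.01. Isg15, a ubiquitin-like protein that is attached to other proteins during the response, lay at 7.62 and 7.72 in ILn and at 9.44 and 9.49 in LP, 3.48-fold higher in LP (adjusted p = 0.0023 in limma). Irf7, the transcription factor that amplifies the response, lay at 7.97 and 8.02 in ILn and at 9.60 and 9.55 in LP. A second Irf7 probe set differed by -0.71 and did not pass (adjusted p = 0.274 in limma). Usp18, which removes Isg15 from proteins and dampens receptor signalling, lay at 6.12 and 6.25 in ILn and at 8.34 and 8.11 in LP. The antiviral GTPase gene Mx1 was at the floor on both ILn arrays and at 6.62 on each LP array, at least 4.10-fold higher. For these 4 genes the groups did not overlap, as was so for all 132 probe sets past the test.

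Among the remaining effectors, the RNA-binding proteins Ifit1, Ifit2 and Ifit3 were higher in LP by 3.39-fold, at least 3.16-fold and 3.92-fold. Ifit2 was at the floor in ILn. The antiviral enzyme gene Rsad2 was 3.17-fold higher and Mx2 2.94-fold. Of the guanylate-binding and immunity-related GTPases, which act on membranes of intracellular pathogens, Gbp3 lay at 7.79 and 7.65 in ILn and at 9.34 and 9.47 in LP, and Igtp was 2.73-fold higher in LP. The 23 members that did not pass ranged from -1.50, for Gbp2b (adjusted p = 0.05002 in limma, just above the threshold), to 0.22, for the transcription factor gene Irf1. The summed intensity of the list was 7494 and 6861 in ILn and 12362 and 13503 in LP. With all 9 arrays in the fit 4 members passed, and with the title date as a block limma called 0, with 15 at an unadjusted p under 0.05 and higher in LP. In that date-block fit 350 of all 8987 probe sets had an unadjusted p under 0.05, in either direction. ILn B minus LP B was -1.77 for Isg15 and -1.53 for Irf7.

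The promoters of the interferon list were searched for GAAANNGAAA, the repeated core of the interferon-stimulated response element, in the 250 bases before and 50 bases after the start site given by RefSeq on GRCm38.p6. Both strands were searched and matches could overlap one another. On the opposite strand the match reads TTTCNNTTTC. The letters were found in 1079 of 27025 genes with a promoter entry (3.99%) and in 24 of the 43 interferon list genes with an entry (55.8%). They were found in 6 of the 8 genes that were higher in LP and had an entry (75.0%), and in 9 of the 21 that were tested and did not pass (42.9%). The genes higher in LP with no match in this window were Irf7 and Ifit2. The list was made of known interferon response genes, so the share describes the list and not the tumours. The 6 promoters with a match are shown because they belong to genes higher in LP. Each is a 60-base stretch upstream of the start site, read 5' to 3' on the gene's strand, with the fixed letters of the match in capitals:
Isg15, chr4:156200847-156200906, minus strand: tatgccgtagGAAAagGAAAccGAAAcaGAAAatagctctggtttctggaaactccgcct
Gbp3, chr3:142559984-142560043, plus strand: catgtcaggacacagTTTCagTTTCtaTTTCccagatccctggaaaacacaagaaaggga
Ifit1, chr19:34640775-34640834, plus strand: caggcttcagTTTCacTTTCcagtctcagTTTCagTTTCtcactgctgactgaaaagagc
Ifit3, chr19:34583363-34583422, plus strand: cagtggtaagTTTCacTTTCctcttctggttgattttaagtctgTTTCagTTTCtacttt
Igtp, chr11:58199496-58199555, plus strand: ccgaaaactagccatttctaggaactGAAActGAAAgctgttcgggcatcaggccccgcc
Rsad2, chr12:26456523-26456582, minus strand: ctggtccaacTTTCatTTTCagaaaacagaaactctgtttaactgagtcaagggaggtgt
The stretch shown for Isg15 had 3 overlapping matches, in Gbp3, Ifit1 and Ifit3 there were 2 each, and in Igtp and Rsad2 there was 1. A match is a run of letters and no measure of binding.

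Class I antigen presentation genes are raised by interferon in many cells, and 16 of the 19 tested had a difference below 0. The median difference over all genes tested was -0.01. B2m, the light chain of class I molecules, lay at 10.43 and 10.49 in ILn and at 11.55 and 11.41 in LP, 2.03-fold higher in LP. It was the 1 gene that passed on its brightest probe set, and the list's median was -0.48. The largest difference in the list went the other way and did not pass: the class I gene H2-Q1 lay at 7.48 and 6.72 in ILn and at 5.77 and 5.73 in LP (1.35, adjusted p = 0.110 in limma). The peptide transporter genes Tap1 (-0.90, adjusted p = 0.0617 in limma) and Tap2 (-1.03, adjusted p = 0.0828 in limma) did not pass. For the heavy chain gene H2-K1, 1 probe set passed at -1.56, and the others, at -0.69 and -0.76, did not. Of 13 class II genes tested none passed in limma, and the median was 0.01. An unadjusted p under 0.05 was found for 3 of them, beside 1122 of all 8987 probe sets tested.

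The single largest difference towards LP was that of D17H6S56E-5, named for a DNA segment of the mouse chromosome that carries the major histocompatibility complex. It lay at 6.31 and 6.06 in ILn and at 10.20 and 10.23 in LP, 16.3-fold higher in LP (-4.03 ± 0.18 (SE), adjusted p = 7.30e-05 in limma). The other arrays lay on either side: FVBn was at 5.95, while MOLF and NZB arrays were between 9.77 and 10.26. No array had a value between 6.31 and 9.77.

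Pglyrp1, a bactericidal protein of neutrophil granules that binds peptidoglycan, lay at 7.83 and 7.78 in ILn and at 10.31 and 10.33 in LP. It was 5.73-fold higher in LP (adjusted p = 0.00028 in limma), and a second probe set passed at -1.94. Of the other neutrophil genes none passed as higher in LP. S100a9 and Ngp were at the floor on all 4 arrays and could show no difference. Camp lay between 5.89 and 6.54, and S100a8 at 7.23 and 6.73 in ILn and at 7.38 and 7.42 in LP. Padi4 differed by -0.86, Csf3r by -0.63 and Elane by -0.38, and 11 of the 14 tested members of the list had a difference below 0. Over all genes tested the median difference was -0.01. Of 14 tested genes of the neutrophil and acute phase list, Pglyrp1 was higher in LP and the haemoglobin-binding gene Hp (haptoglobin) was higher in ILn, by 1.06, and the median was -0.32. The summed intensity of the list was 14336 and 13149 in ILn and 17144 and 17287 in LP. Saa2, an acute phase apolipoprotein gene, lay at 8.34 and 8.33 in ILn and at 11.09 and 10.93 in LP on 1 probe set, 6.40-fold higher in LP. The brighter Saa2 probe set, the one counted in the list, differed by -0.93 and did not pass (adjusted p = 0.0517 in limma). Saa genes are close copies, and the probe sets may report several.

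Agt, which encodes angiotensinogen and is made in liver and fat, lay at 5.96 and 5.71 in ILn and at 8.20 and 8.27 in LP. On the other 5 strain arrays it lay at most at 6.04, so both LP arrays were above all other strain arrays. The insulin-responsive glucose transporter gene Slc2a4, which serves fat and muscle, was at the floor in ILn and at 6.46 and 6.14 in LP, while a second probe set differed by -0.11 and did not pass. They were the 2 of 24 adipocyte genes tested that passed, and the median was -0.19. Of the 24, 7 had an unadjusted p under 0.05, all higher in LP, beside 1122 of all 8987 probe sets in either direction. The fat cell hormone gene Adipoq lay at 7.72 and 7.43 in ILn and at 8.20 and 7.95 in LP and did not pass, nor did the lipogenic regulator gene Thrsp (-0.77) or the lipid droplet gene Plin4 (-0.63). Fabp4, a fatty acid carrier of fat cells, overlapped between the groups, at 6.55 and 6.45 in ILn and at 6.35 and 6.63 in LP. Notch4, an endothelial Notch receptor that is also a known integration site of mouse mammary tumour virus, lay at 10.001 and 9.41 in ILn and at 12.10 and 11.82 in LP. A second Notch4 probe set differed by 0.64 and did not pass, so the direction for the gene is uncertain. Of 20 endothelial genes tested, Notch4 was higher in LP and the adhesion gene Mcam higher in ILn, by 1.14, with a median of 0.16. Ccl5, a chemokine of T and NK cells, was at the floor in ILn and at 6.34 and 6.04 in LP, and was the 1 of 13 T and NK cell genes tested that passed. The T cell receptor genes Cd3e and Cd3d were at the floor on all 4 arrays.

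Several programmes of the tumour itself had few or no genes past the test. The counts at an unadjusted p under 0.05 stand beside 1122 of all 8987 probe sets tested, in either direction. None of 40 keratin and epithelial junction genes passed in limma, 4 had an unadjusted p under 0.05, and the median was -0.03. Of 49 cell cycle and replication genes none passed, 5 had an unadjusted p under 0.05, all lower in ILn, and the median was -0.13. The proliferation marker gene Mki67 lay at 7.73 and 7.66 in ILn and at 8.67 and 8.32 in LP (-0.80, adjusted p = 0.115 in limma). None of 40 metastasis-associated genes passed in limma, although 13 had an unadjusted p under 0.05, all higher in ILn, and the median was 0.20. Their lowest adjusted p was that of Cst3, the secreted protease inhibitor cystatin C, at 10.45 and 10.61 in ILn and 9.43 and 9.77 in LP (adjusted p = 0.054 in limma). The metastasis-associated list shares members with the fibroblast and matrix list, Fn1 and Postn among them, so the counts of these lists are not independent. None of 31 macrophage genes passed, 6 had an unadjusted p under 0.05, all higher in ILn, and the median was 0.19. None of 23 immediate early genes passed, 4 had an unadjusted p under 0.05, and the median was -0.04. Of 21 milk protein and lactation genes 2 were higher in ILn: the mucin-like secreted protein gene Fcgbp, at 10.72 and 10.41 against 9.03 and 9.28, and the casein gene Csn1s2a, at 9.70 and 9.58 against 8.69 and 8.78. Its relative Csn2 differed by 0.73 and did not pass, and the median was 0.05. These results show only that no difference was detected with 2 arrays a group.

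The remaining strain arrays were set beside these genes as a description. Of the 71 probe sets higher in ILn, the FVBn array lay nearer the ILn mean for 46, the MOLF arrays for 19 and 20, and the NZB arrays for 14 and 11. Of the 61 higher in LP, the NZB arrays lay nearer the LP mean for 46 and 38, the MOLF arrays for 11 and 7, and the FVBn array for 2. Smr3a, for instance, lay at 12.06 in FVBn, at 9.11 and 9.23 in MOLF and at 6.16 and the floor in NZB. Myh4 lay at 4.75 in FVBn, at 6.32 and 6.72 in MOLF and at 10.11 and 9.65 in NZB. The actin ratio was 0.220 in FVBn, 0.782 and 0.603 in MOLF and 0.956 and 1.03 in NZB. The MOLF ratios lay above those of ILn, 0.218 and 0.282. Summed intensities on the MOLF arrays lay below those on ILn for the salivary, matrix, fast fibre and interferon lists. For interferon they were 5420 and 6526 in MOLF against 7494 and 6861 in ILn. LP lay below ILn for the salivary and matrix lists and above it for the fast fibre and interferon lists. The part of the actin ratio was not tested.

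**Figure D4:**
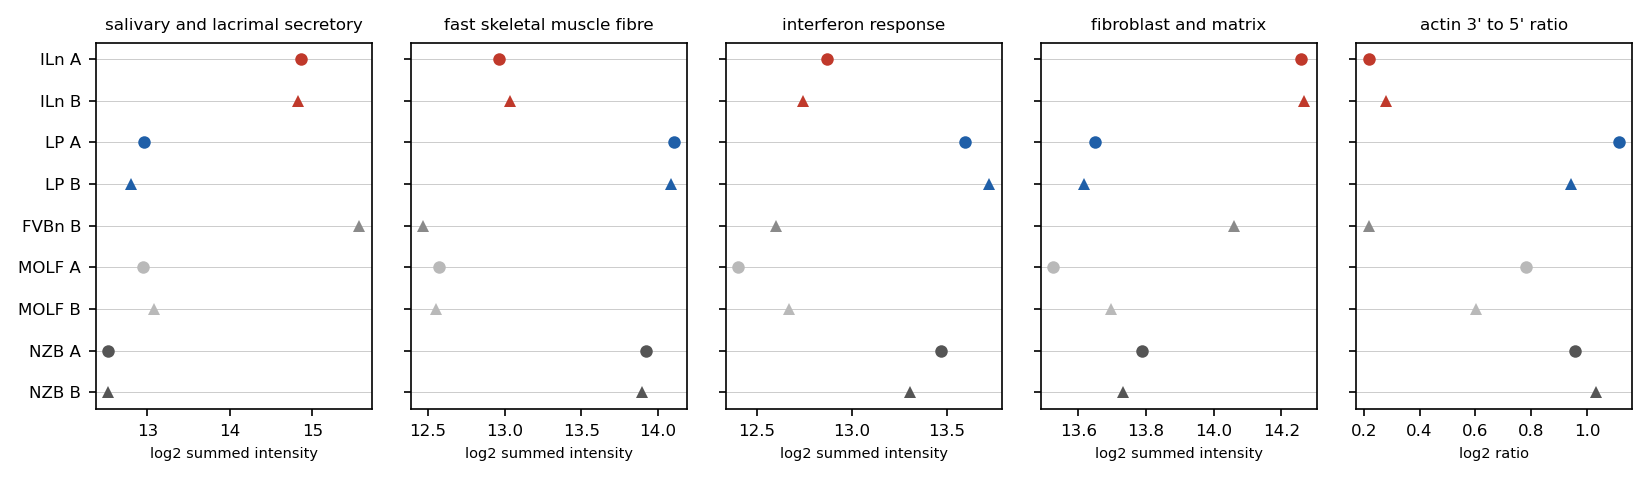
Summed intensity of 4 gene lists (log2, horizontal axes of the first panels) and the actin 3' to 5' ratio (log2, last panel) on each of the 9 strain arrays, 1 point per array. ILn is red, LP is blue and the other strain arrays are grey. The ILn arrays, with actin ratios of 0.218 and 0.282, and the LP arrays, with 1.12 and 0.940, do not overlap in any of the panels.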

How the data were processed

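The authors deposited 1 linear intensity value per probe set for each of 10 arrays, by a summarisation method that the sources used here do not name. The trimmed mean (lowest and highest 2% left out) was 500.2 on ILn A and about 150.1 on the other 3 arrays compared. Each of the 9 strain arrays was rescaled to a trimmed mean of 150, quantile normalized, raised to the 30th percentile (an intensity of 23.9) and converted to log2. The array with no strain name was not used. Of 12488 probe sets, 66 controls were dropped, and the 8987 above the floor on at least 2 of the 4 arrays were tested with limma 3.58.1 in R 4.3.3 (lmFit, eBayes with an intensity trend, Benjamini-Hochberg). The fit had 2 residual and 5.38 prior degrees of freedom and a median residual SD of 0.211. An exact permutation test of 2 against 2 cannot go below p = 0.333 two-sided. The method was tested on simulated data.

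In the platform annotation 10855 probe sets had 1 gene symbol, 396 had several and 1237 had none. Symbols were brought up to date by Entrez identifier with RefSeq names of GRCm38.p6, which held 10839 of them. Of the 132 probe sets past the test 20 had no single symbol. In lists, a gene is represented by its probe set with the highest mean. Named genes were the 15 largest differences each way that passed without overlap, the 4 markers Smr3a, Dnase1, Pglyrp1 and Myh4, and up to 4 members per list with the smallest p. Other names were chosen after their values were seen. The comparison, the genes and the 20 lists were chosen with earlier results of these data known. The letters A and B were not used to pair the samples, since the labels do not say whether they pair them. The A minus B differences of ILn and LP correlated at -0.0039, which cannot settle this.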

Additional observations from a re-analysis of the deposited data

How the results depend on the processing

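The number of arrays, 2 a group, limits the precision of every value. All 132 probe sets kept their sign in each setting that tested them, but in many settings the sign could not change. Settings that altered only the filter, the spread or the replicate block left the difference itself as it was. When 1 array was left out the sign was fixed too, since no ILn array overlapped an LP array at the 132. Of the 132 (71 higher in ILn, 61 in LP), rescaling without the quantile step gave 136 calls (127 shared), a floor at the 20th percentile 137 and at the 50th 127. Log2 of intensity plus 32 without a floor gave 223 (127 higher in ILn, 96 in LP). Testing only probe sets above the floor on all 4 arrays gave 203 (106 and 97), and testing every probe set 32 (18 and 14; the prior fell to 0.807 degrees of freedom). All 9 arrays with a shared spread gave 53 (34 and 19), and the title date as a block 8 (6 and 2). The array letter as a replicate block gave 274 (166 and 108) and eBayes without the trend 120 (71 and 49). Leaving out any 1 array gave 0 calls in all, in each direction and in each list.

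The 15 fast fibre genes became 6 with 9 arrays, 2 without the filter and 0 with the date block. The 11 interferon genes became 4, 2 and 0, and the 12 salivary genes became 4 without the filter, 4 with all 4 arrays above the floor and 5 with the date block. The 7 matrix genes became 17 with all 4 arrays above the floor, 17 with the replicate block, 15 without a floor, 11 with the floor at the 50th percentile, 4 without the trend, 2 with 9 arrays, 1 without the filter and 0 with the date block. The cause of these shifts was not tested. H2-Eb1 reversed from -0.61 to 0.0414 with the date block, and neither value passed.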

Other observations

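Some genes past the test belong to none of the 20 lists: 22 were higher in ILn and 13 in LP. They were chosen here after their values were seen. Among those higher in ILn was Spdef, a transcription factor of secretory and luminal epithelium, at 7.62 and 7.63 in ILn and at 6.50 and 6.25 in LP (difference 1.25). Dll1, a Notch ligand, lay at 7.86 and 7.53 in ILn and at 6.08 and 6.33 in LP (1.49). Ssr3, a subunit of the complex that assists protein entry into the endoplasmic reticulum, was higher in ILn by 1.52. Ifi202b, an interferon-inducible gene that is not in the interferon list, went the other way from the list, at 7.11 and 7.13 in ILn and 5.57 and 5.49 in LP (1.59). Psap and Capg each had 1 dim probe set past the test, by 2.25 and 1.94, while their brightest probe sets, at 0.52 and -0.04, did not pass.

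Of the 13 higher in LP, 7 are given here. Abhd5, the activator of the main triglyceride lipase, lay at 9.24 and 9.12 in ILn and was higher on both LP arrays (-0.87). Stard10, a phospholipid transfer protein, differed by -0.98, and Gdpd3, a phosphodiesterase, by -1.09. Mgst1, a microsomal glutathione transferase, differed by -1.13. Wls, which escorts Wnt proteins to the cell surface, lay at 8.04 and 8.11 in ILn and at 9.13 and 9.22 in LP (-1.10). Lgals9, a galectin, differed by -1.24 and the mitochondrial gene Chchd10 by -0.82. The arrays of the groups did not overlap for any of these genes, as was so for all 132 probe sets past the test. Iigp1 had 1 probe set past the test at -1.79, while the brighter one, counted in the interferon list, differed by -1.03 and did not pass.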
